A study of Homo sapiens with 9 samples.

Results

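The replication-independent core histone variants examined here were 8 genes, whose membership is set by gene name and not by a measured threshold: H2AFX (H2A.X), H2AFZ and H2AFV (the H2A.Z isoforms), H2AFY (macroH2A1), H2AFJ (H2A.J), H3F3A and H3F3B (both H3.3) and CENPA (CENP-A). All 8 were among the 25370 gene symbols of the deposited count table. Of these, 7 had counts and passed the filter on low counts, which left 15089 genes for testing, and H3F3A was listed at 0 in every library. RNA was measured in OCI-Ly1, a human cell line of diffuse large B-cell lymphoma (DLBCL) grown in IMDM medium with serum. Cells received DMSO, the vehicle, or JIB-04 at 150 nM or 500 nM for 48 h, with 3 libraries in each of the 3 groups. JIB-04 is a small molecule that inhibits histone demethylases with a Jumonji domain, and the study concerns 2 enzymes of that family, KDM4A and KDM4C, in DLBCL. All groups are of this single cell line, and no label states that replicates were grown as separate cultures, so the spread behind the p-values may be technical.

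Most core histones are made from clustered genes during S phase, from mRNAs that end in a stem-loop instead of a poly(A) tail. Variant genes lie outside those clusters, are usually transcribed with introns and poly(A) tails, and supply histones throughout the cell cycle. Dedicated chaperones and remodelling complexes place each variant at its own sites: H3.3 at active genes and repeats, H2A.Z at promoters and CENP-A at centromeres. H2A.X is the histone phosphorylated around DNA breaks, and macroH2A carries a large globular domain and is known from silent chromatin. The libraries were made from total RNA after depletion of ribosomal RNA, so mRNAs with and without a poly(A) tail could be counted side by side.

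Libraries held 28476845 to 57198613 counts, and DMSO replicate 2, the shallowest, stood apart on the second principal component. Averaged over the 9 libraries, all 8 germinal-centre B-cell markers reached 1 CPM (a gene's count relative to the TMM-scaled library size). Their summed level was 2113 to 2169 CPM with DMSO, 2104 to 2198 at 150 nM and 1742 to 1801 at 500 nM. Among 5 T-cell markers TRAT1 was at 0 in every library, CD3D and CD3G exceeded 1 CPM, and the summed level was 17.9 to 20.9, 13.4 to 16.0 and 7.73 to 8.37 CPM in the same order of groups. The 5 myeloid markers summed to 2.36 to 2.86, 1.12 to 1.96 and 1.16 to 1.89 CPM, with MPO and S100A8 at 0, and the 5 fibroblast markers to at most 1.59 CPM. Averaged over the 9 libraries, 1 of the myeloid and 0 of the fibroblast markers reached 1 CPM. The T-cell and myeloid sums were below DMSO at both doses and the B-cell sum at 500 nM. At 500 nM they were lower beside 6 of the variants described below, and their part in those results was not tested. All libraries are of a single cell line, so these sums are not evidence of other cell types in the culture. In bulk RNA, fewer cells that express a marker and less RNA per cell cannot be told apart.

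At 500 nM JIB-04, 6 of the 7 measured variant genes fell against DMSO and the H3.3 gene H3F3B did not pass the test. CENPA, the centromeric histone H3, fell the most, to 0.605 times its DMSO level, followed by H2AFZ at 0.759 and H2AFJ at 0.781 times. H2AFV, H2AFY and H2AFX lay between 0.834 and 0.862 times their DMSO levels. At 150 nM no variant gene passed the test in either direction. Against this, 25.6% of all tested genes were called lower and 26.3% higher at 500 nM (52.0% in either direction), and 1.27% were called at 150 nM (0.954% higher and 0.318% lower). Genes were called at an adjusted p under 0.05 in edgeR's quasi-likelihood test over all 9 libraries, with Benjamini-Hochberg adjustment over 15089 genes, and all adjusted p-values of genes below come from that test. The median log2 fold change at 500 nM was -0.26 over the 7 variant genes and 0.01 over all tested genes.

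**Figure D1:**
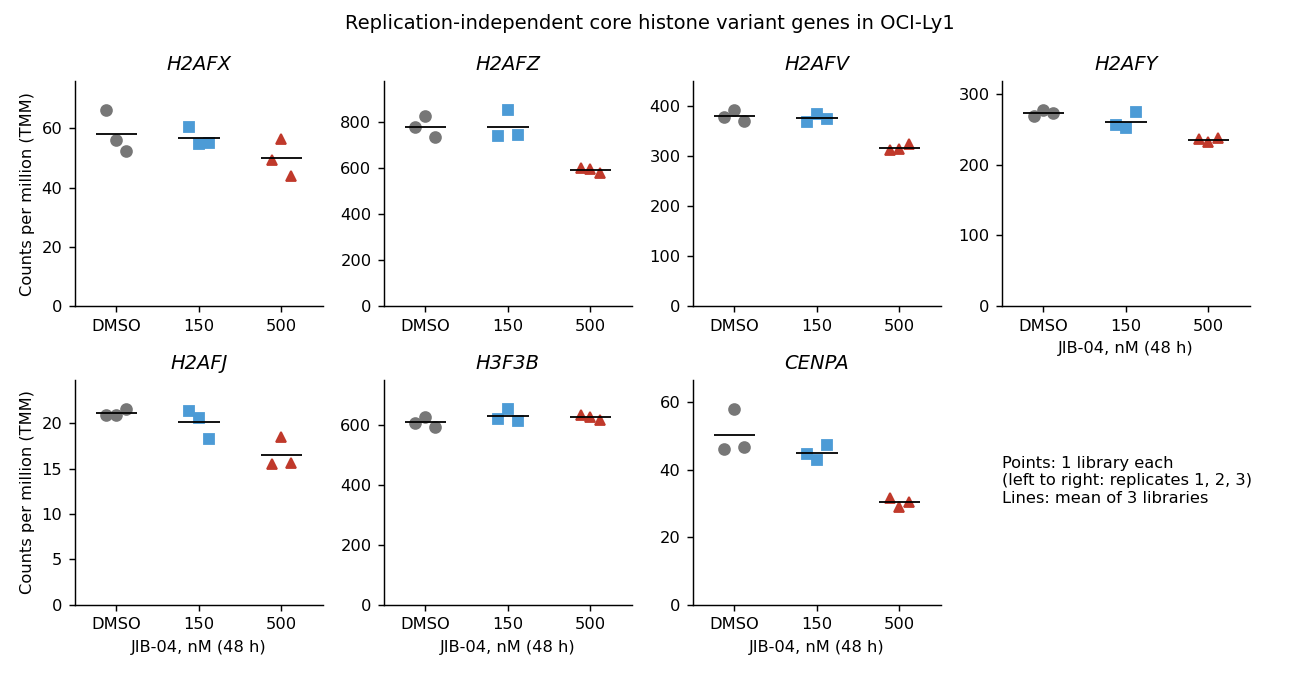
Level (CPM after TMM scaling) of the 7 measured variant genes, 1 panel a gene, against the JIB-04 concentration in nM, 0 at the foot of each axis. Points are single libraries and lines are the mean of 3 libraries; every 500 nM library lies below every DMSO library for H2AFZ, H2AFV, H2AFY, H2AFJ and CENPA, and the groups overlap for H2AFX and H3F3B.

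CENPA fell most, H2AFZ was the most abundant measured variant gene, H2AFX is nearest to the S-phase histones and H3F3B was not called. The promoters of these genes are shown side by side. They are the 300 bases from 250 before to 50 after the RefSeq start of each gene in GRCh38.p14, 5′ to 3′ on the gene's strand, at chr2:26785806-26786105 (plus strand), chr4:99950226-99950525, chr11:119095416-119095715 and chr17:75779730-75780029 (the last 3 on the minus strand). Capitals mark CCAAT, the box bound by NF-Y, and TTTGAA, a form of the cell cycle homology region (CHR) element, each on either strand (ATTGG and TTCAAA are their reverse complements).
CENPA: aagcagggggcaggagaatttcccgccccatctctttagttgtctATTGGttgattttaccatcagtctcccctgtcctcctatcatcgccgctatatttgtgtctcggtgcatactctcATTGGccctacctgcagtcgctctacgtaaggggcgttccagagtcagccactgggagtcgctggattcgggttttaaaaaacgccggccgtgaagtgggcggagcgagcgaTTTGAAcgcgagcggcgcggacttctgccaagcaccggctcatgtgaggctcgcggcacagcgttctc
H2AFZ: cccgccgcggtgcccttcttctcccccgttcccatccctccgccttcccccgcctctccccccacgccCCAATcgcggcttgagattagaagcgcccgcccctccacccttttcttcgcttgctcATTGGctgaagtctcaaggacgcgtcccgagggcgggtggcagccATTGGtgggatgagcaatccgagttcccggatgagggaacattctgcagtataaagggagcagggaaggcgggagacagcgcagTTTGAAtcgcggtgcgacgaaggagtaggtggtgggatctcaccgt
H2AFX: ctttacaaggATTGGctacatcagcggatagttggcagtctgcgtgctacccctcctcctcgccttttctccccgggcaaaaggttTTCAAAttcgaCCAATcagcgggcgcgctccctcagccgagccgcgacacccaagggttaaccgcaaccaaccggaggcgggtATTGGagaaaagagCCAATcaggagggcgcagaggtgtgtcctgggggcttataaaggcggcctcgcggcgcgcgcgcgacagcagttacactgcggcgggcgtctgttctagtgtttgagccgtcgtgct
H3F3B: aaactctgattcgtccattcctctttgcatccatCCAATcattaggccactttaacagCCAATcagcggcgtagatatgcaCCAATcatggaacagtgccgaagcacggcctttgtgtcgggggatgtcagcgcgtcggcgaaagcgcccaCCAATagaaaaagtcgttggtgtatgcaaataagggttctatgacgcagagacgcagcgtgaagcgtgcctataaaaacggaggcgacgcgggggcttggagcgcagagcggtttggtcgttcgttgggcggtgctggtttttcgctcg

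In the CENPA window CCAAT matches begin 205 and 130 bases before the start, and TTTGAA begins 18 bases before it. The H2AFZ window holds 3 CCAAT matches, a TTTGAA just inside the transcript and a TATAAA 31 bases before the start. The H2AFX window holds 4 CCAAT matches, a TTTGAA match 164 bases before the start and a TATAAA 31 bases before it. H3F3B has 4 CCAAT matches and a TATAAA 29 bases before its start, and no TTTGAA in this window. All 8 variant genes matched RefSeq promoters, with 12 windows in all. Every gene had CCAAT in at least 1 window, 7 of 8 had 2 or more matches in 1 window, and TTTGAA occurred in CENPA, H2AFZ and H2AFX. Counted by window and not by gene, 10 of the 12 windows held CCAAT and 3 held TTTGAA. The shares over all promoters are also by window. Among all 35116 promoters of this length 34.6% held CCAAT, 10.8% held 2 or more, 15.2% held TTTGAA, 5.90% held both and 11.5% held TATAAA. Of 21 promoters of 16 G2 and mitosis genes, 17 held CCAAT, 12 TTTGAA and 11 both. TTCCCGC or TTGGCGC, forms of the E2F site on either strand, occurred in windows of CENPA, 231 bases before the start, and of H3F3A, and in 9.23% of all promoters. Matches of such short motifs are descriptions of the windows and not evidence of binding.

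The histone mRNA stem-loop, the 3′ end of replication-dependent histone mRNAs, was found in the transcripts of only 1 of the 8 variant genes, H2AFX, whose mRNA is known both with a stem-loop end and with a poly(A) tail. Its sequence is given below with that most frequent among replication-dependent genes, in capitals throughout.
H2AFX: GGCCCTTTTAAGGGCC
Most frequent: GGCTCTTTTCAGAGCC
In the longer H2AFX transcript, of 1614 bases, the stem-loop ends 1044 bases before the annotated end. The motif occurred in 31 of 67 replication-dependent core histone symbols (46.3%), 17 of them with the second sequence, and in 7 of 22613 other symbols with a transcript (0.0310%). The search took a strict pattern with a perfectly paired stem, and only within annotated transcripts. A gene without a match is therefore not shown to lack a stem-loop.

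CENP-A replaces H3 in centromeric nucleosomes and marks the site of the kinetochore. CENPA measured 46.2, 58.0 and 46.7 CPM in DMSO replicates 1, 2 and 3. It measured 44.6, 42.9 and 47.2 CPM at 150 nM and 31.6, 29.0 and 30.4 CPM at 500 nM. All 3 libraries at 500 nM lay below every other library, and the 150 nM libraries overlapped DMSO, where replicate 2 was highest. The log2 fold change at 500 nM was -0.72 ± 0.08 (SE) against DMSO (adjusted p = 2.51e-08) and -0.56 ± 0.08 against 150 nM (adjusted p = 2.27e-06). At 150 nM it was -0.16 ± 0.08, which was not called (adjusted p = 0.514). Without DMSO replicate 2 the value at 500 nM was -0.62 and was still called (adjusted p = 9.12e-07).

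H2A.Z, encoded by H2AFZ and H2AFV in near-identical isoforms, flanks the start sites of active and poised genes. H2AFZ measured 775, 825 and 733 CPM with DMSO, 739, 849 and 744 CPM at 150 nM and 599, 596 and 577 CPM at 500 nM. H2AFV measured 378, 391 and 370 CPM with DMSO, 367, 383 and 374 CPM at 150 nM and 312, 314 and 324 CPM at 500 nM. For both genes the DMSO and 150 nM libraries overlapped and the 500 nM libraries lay below all of them. H2AFZ fell by 0.40 ± 0.05 on the log2 scale at 500 nM against DMSO (adjusted p = 4.49e-07) and by 0.40 ± 0.05 against 150 nM (adjusted p = 6.5e-07). H2AFV fell by 0.26 ± 0.05 (adjusted p = 3.23e-05) and by 0.24 ± 0.05 (adjusted p = 9.75e-05) in those comparisons. The 150 nM changes were -0.0005 ± 0.05 for H2AFZ and -0.02 ± 0.05 for H2AFV (adjusted p = 0.998 and 0.942).

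The count ratio of H2AFZ to H2AFV within a library, which no library scaling can change, was 2.05 ± 0.06 (SD, n = 3) with DMSO, 2.07 ± 0.13 at 150 nM and 1.87 ± 0.08 at 500 nM. All 3 libraries at 500 nM (1.78 to 1.92) lay below the other 6 (1.98 to 2.22). Over the 3 groups the exact permutation test of the log2 ratio, an F statistic over 1680 arrangements, gave p = 0.05 (adjusted p = 0.0667 over 4 such quantities). A difference in the change of the 2 isoform genes was therefore not called.

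The remaining H2A variant genes are H2AFY, H2AFJ and H2AFX. H2AFY, the macroH2A1 gene, measured 268, 276 and 272 CPM with DMSO, 256, 252 and 275 CPM at 150 nM and 236, 231 and 237 CPM at 500 nM. Its 500 nM libraries lay below all others. The log2 fold change at 500 nM was -0.21 ± 0.05 against DMSO (adjusted p = 0.000641) and -0.15 ± 0.05 against 150 nM (adjusted p = 0.0133), with -0.06 ± 0.05 at 150 nM (adjusted p = 0.729). The call against 150 nM was lost without 150 nM replicate 3 (-0.11, adjusted p = 0.0877) or 500 nM replicate 2 (-0.14, adjusted p = 0.0547).

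H2A.J is a mammalian H2A variant known to accumulate in senescent cells. H2AFJ, its gene, measured 21.0, 20.9 and 21.6 CPM with DMSO, 21.3, 20.6 and 18.3 CPM at 150 nM and 15.5, 18.5 and 15.6 CPM at 500 nM. The 500 nM libraries lay below DMSO and overlapped 150 nM, where replicate 3 lay below the highest 500 nM library. The log2 fold change at 500 nM was -0.36 ± 0.10 against DMSO (adjusted p = 0.00244) and -0.29 ± 0.10 against 150 nM (adjusted p = 0.0153), and -0.07 ± 0.10 at 150 nM (adjusted p = 0.86). The call against 150 nM was lost without 150 nM replicate 1 (-0.24, adjusted p = 0.0565) or 2 (-0.27, adjusted p = 0.0516), and without 500 nM replicate 1 (-0.24, adjusted p = 0.0791) or 3 (-0.25, adjusted p = 0.0729).

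H2AFX, the variant gene with a stem-loop, measured 66.1, 56.0 and 52.4 CPM with DMSO, 60.4, 54.9 and 55.1 CPM at 150 nM and 49.2, 56.3 and 44.0 CPM at 500 nM. The groups overlapped, since 500 nM replicate 2 lay above DMSO replicates 2 and 3. The log2 fold change at 500 nM was -0.23 ± 0.09 against DMSO (adjusted p = 0.0309) and -0.19 ± 0.09 against 150 nM, which was not called (adjusted p = 0.0733), and -0.03 ± 0.09 at 150 nM (adjusted p = 0.936). The call against DMSO rested on single libraries: it was lost without DMSO replicate 1 (-0.12, adjusted p = 0.242) and without 500 nM replicate 1 (-0.22, adjusted p = 0.0826) or 3 (-0.14, adjusted p = 0.207). With the libraries' trends on GC content removed it was -0.47 (adjusted p = 8.93e-09).

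H3.3, the H3 variant laid down outside replication, is encoded by H3F3A and H3F3B, which specify the same protein. H3F3B measured 606, 626 and 590 CPM with DMSO, 619, 652 and 613 CPM at 150 nM and 633, 624 and 615 CPM at 500 nM. The groups overlapped in every pair. Its log2 fold change was 0.05 ± 0.05 at 150 nM (adjusted p = 0.796), 0.04 ± 0.05 at 500 nM (adjusted p = 0.498; 95% interval -0.05 to 0.13) and -0.01 ± 0.05 between the doses (adjusted p = 0.902).

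H3F3A gave no measurement. It was listed at 0 in all 9 libraries, as was its neighbour in the table, the pseudogene H3F3AP4, and as were 5024 of the 25370 symbols. In the transcript sequences of GENCODE release 29, 12.9% of the 50-base windows of the H3F3A coding transcript occur in another gene, and every such window is in H3F3AP4. The corresponding shares were 23.2% for H2AFY, where most shared windows were in C5orf66, 8.28% for H3F3B (with H3F3C), 7.85% for H2AFZ (with the pseudogene H2AFZP3), 3.06% for H2AFV (with H2AFVP1), 0.319% for H2AFX and 0 for H2AFJ and CENPA. The sources used here give neither the strand setting nor how shared reads were counted, so a 0 for H3F3A is not evidence of absent transcript, and its cause was not tested.

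**Figure D2:**
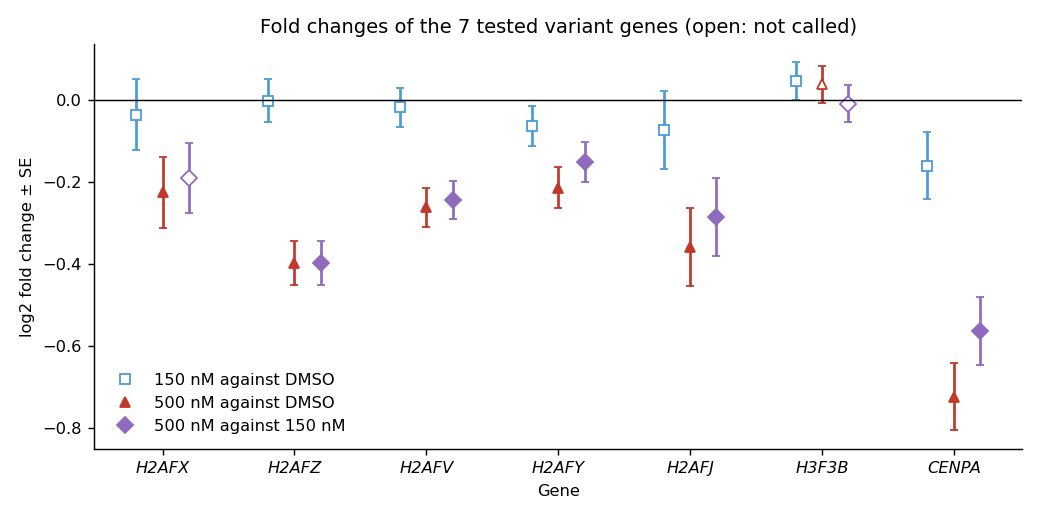
log2 fold changes of the 7 tested variant genes with bars of 1 standard error, for 150 nM and 500 nM JIB-04 against DMSO and for 500 nM against 150 nM. Filled symbols passed an adjusted p of 0.05 and open symbols did not; at 500 nM the changes run from -0.72 for CENPA to 0.04 for H3F3B.

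Between the doses 5 of the 7 genes fell (CENPA, H2AFZ, H2AFV, H2AFY and H2AFJ), where 22.8% of all tested genes fell and 23.7% rose (46.5% called). The groups did not overlap between 500 nM and DMSO for 5 of 7 genes, all lower at 500 nM, where 29.0% of all tested genes had every 500 nM library below every DMSO library. A test over any of the 3 groups called 5 of 7 genes, among 50.2% of all genes: CENPA, H2AFZ, H2AFV, H2AFY and H2AFJ. H2AFX (adjusted p = 0.0633) and H3F3B (adjusted p = 0.643) were not called by it. At 150 nM the count was also 0 with DESeq2 and with limma-voom, and 0 at an unadjusted p under 0.05 in edgeR. Comparisons that share the DMSO or the 500 nM libraries are not independent.

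As a description free of library scaling, each gene's count was set against that of H3F3B in the same library. H3F3B was taken after its values were seen, as the gene that was not called, so the directions on this scale are no independent support. CENPA stood at 8.26 counts per 100 of H3F3B with DMSO, 7.16 at 150 nM and 4.86 at 500 nM, and H2AFZ at 128, 124 and 94.6. For CENPA, H2AFZ, H2AFV, H2AFY and H2AFJ the 500 nM libraries lay below every DMSO library on this scale, and for H2AFX they overlapped. Scaling by total counts raised the median of all genes by 0.139 at 500 nM against DMSO, and the share of calls that were higher from 50.7% to 69.5%. Under it CENPA (-0.58), H2AFZ (-0.26) and H2AFV (-0.12) stayed called lower, H2AFX (-0.09), H2AFY (-0.07) and H2AFJ (-0.22) were not called, and H3F3B was called higher (0.18, adjusted p = 0.00122). Relative to the shift of the median these values were -0.72, -0.40, -0.26, -0.23, -0.21, -0.36 and 0.04, the TMM values again, as a common shift must give.

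**Figure D3:**
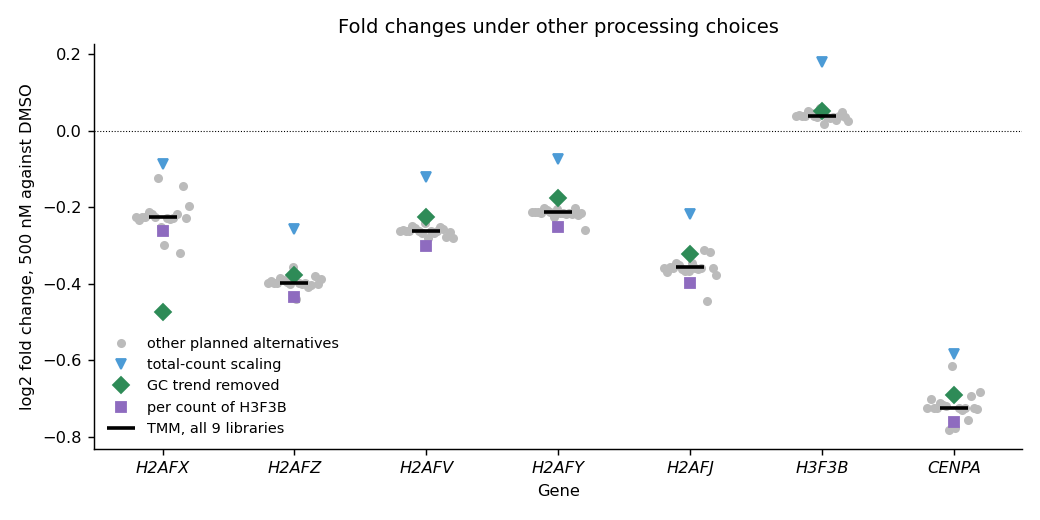
log2 fold change at 500 nM JIB-04 against DMSO for each tested variant gene under the processing alternatives, with black bars for TMM scaling of all 9 libraries. Total-count scaling (triangles) moves all 7 genes upward together, H3F3B to 0.18, and removal of GC trends (diamonds) moves H2AFX to -0.47.

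The 7 measured variant genes can be compared per kilobase of coding transcript. On that scale H2AFZ was the most abundant of them with DMSO at 794 ± 46.7 CPM per kb (SD, n = 3). H3F3B followed at 225 ± 6.61, H2AFV at 99.8 ± 2.80 and H2AFY at 97.6 ± 1.52 CPM per kb. H2AFX (36.1 ± 4.37), CENPA (34.6 ± 4.59) and H2AFJ (32.8 ± 0.573) were lowest. H2AFV and H2AFY did not differ beyond their spread, nor did H2AFX, CENPA and H2AFJ. At 500 nM CENPA, at 20.9 ± 0.887 CPM per kb, lay below H2AFJ (25.7 ± 2.69) and H2AFX (30.9 ± 3.83). The order depends on the transcript taken: with each gene's longest annotated transcript H2AFZ was at 414, H2AFY at 24.8 and H2AFJ at 6.80 CPM per kb with DMSO. On that scale H2AFJ was lowest at 500 nM too, at 5.32 CPM per kb against 20.9 for CENPA.

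Over the 9 libraries the log2 levels of H2AFZ and H2AFV had a Pearson correlation of 0.965, H2AFY and CENPA of 0.952, and H2AFV and CENPA of 0.950. H3F3B correlated with no other variant gene above 0.098. These values rest on 3 groups of libraries and largely restate the fall at 500 nM. Among 9661 genes that averaged 5 CPM or more, the patterns closest to CENPA were those of EIF4E2 (0.992), ALYREF (0.990) and GRPEL1 (0.989). For H2AFZ they were MRPL13 (0.988), RPL27 (0.976) and UQCRQ (0.974), and for H2AFV EIF4EBP2 (0.996), SERPINB9 (0.993) and MDH1 (0.993). H2AFY was closest to TTC27 (0.983), LYN (0.981) and WDR12 (0.975), H2AFX to SLC25A39 (0.972), PPP1R9B (0.959) and NEU3 (0.954), and H2AFJ to SLX4 (0.975) and SNX12 (0.966). H3F3B had no gene as close: CHRNA5 (0.860), NDUFAF4 (0.854) and ZNF619 (0.851).

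Replication-dependent core histone genes, made in S phase, fell at 500 nM with few exceptions. The 67 symbols were taken by a name pattern, with no check for pseudogenes, and 55 were tested. Against DMSO 52 fell and 1 rose, and the median log2 fold change was -1.34. Over all tested genes 25.6% fell and 26.3% rose. HIST1H2BM (-2.07 ± 0.06) and HIST1H2BI (-1.84 ± 0.05), both H2B genes, had the smallest p-values, and HIST2H2BC rose (0.35 ± 0.11). HIST1H2BH and HIST1H2AD were not called. At 150 nM 13 of the 55 fell, with a median of -0.20, where 0 of 7 variant genes were called with a median of -0.03. Over all tested genes 0.318% fell at that dose. Another 7 of the 67 symbols, among them HIST2H4A, HIST2H3A and HIST2H2AA3, were listed at 0 in all libraries. Copies of these genes are near-identical, so counts of single members are uncertain.

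The share of variant genes among counts of their own histone family therefore rose. These shares and ratios are of raw counts, not corrected for transcript length, so they are not shares of transcripts. H3F3B made up 11.3 ± 0.74% (SD, n = 3) of the summed counts of H3F3B and the replication-dependent H3 genes with DMSO, 13.2 ± 0.90% at 150 nM and 26.9 ± 0.40% at 500 nM, with CENPA and H3F3C left out and H3F3A and the other genes at 0 unmeasured. The 5 H2A variant genes made up 22.7 ± 0.71%, 24.7 ± 1.63% and 37.4 ± 0.77% of the summed counts of these and the replication-dependent H2A genes. In that sum the H2A genes listed at 0 in every library, HIST2H2AA3 and HIST2H2AA4 among them, are likewise unmeasured. Every 500 nM library lay above every other library in both shares. In counts, H3F3B stood at 26161 against 220556 for replication-dependent H3 genes in DMSO replicate 1 and at 38176 against 101808 in 500 nM replicate 1. The ratio of H3F3B to replication-dependent H3 counts was 0.128 ± 0.009 with DMSO, 0.152 ± 0.012 at 150 nM and 0.368 ± 0.007 at 500 nM, a log2 difference of 1.53 between 500 nM and DMSO. The ratio of H2A variants to replication-dependent H2A counts was 0.294 ± 0.012, 0.329 ± 0.029 and 0.597 ± 0.020, a log2 difference of 1.02. Each gave p = 0.00357 in the exact permutation test over the 3 groups (adjusted p = 0.00714 over 4 quantities), and a pair of groups of 3 cannot go below p = 0.1. Both ratios rose while H3F3B was not called and the H2A variants fell, the replication-dependent genes having fallen further.

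**Figure D4:**
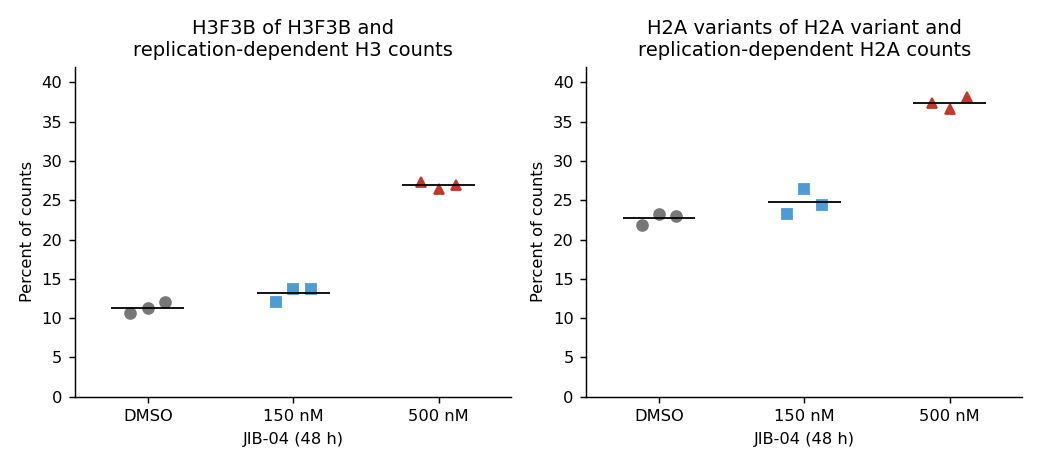
Percent of the counts of H3F3B and replication-dependent H3 genes that came from H3F3B (left), and percent of the counts of the 5 H2A variant genes and replication-dependent H2A genes that came from the variants (right), against JIB-04 treatment. Points are single libraries and lines are the mean of 3; the 500 nM libraries lie at 26.5 to 27.3% and 36.6 to 38.1%, above all others.

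CENPA is transcribed mainly in G2, so it was set beside 20 G2 and mitosis genes. Of these, 19 fell at 500 nM, with a median of -0.70, where 25.6% of all tested genes fell. Among the 19 were the mitotic cyclin gene CCNB1 (-1.32 ± 0.05) and the mitotic kinase gene PLK1 (-1.52 ± 0.07). CDC25C was not called (-0.15, adjusted p = 0.103). At 150 nM only PLK1 was called (-0.28 ± 0.07, adjusted p = 0.024), and CENPA was at -0.16. Of all tested genes 1.27% were called at that dose. The level of CENPA relative to the mean of the list differed by 0.08 on the log2 scale between 500 nM and DMSO, and the exact permutation test over the 3 groups gave p = 0.321 (adjusted p = 0.321). Without DMSO replicate 2, the library with the highest CENPA, the difference was 0.18. The exact permutation test over the 3 groups was then called (adjusted p = 0.0429), which does not test that difference alone. Of 23 DNA replication genes 9 fell and 3 rose, with a median of -0.05, a share of calls like the 52.0% over all genes. RFC3 (-0.62 ± 0.06), a clamp loader subunit, and RRM1 (-0.45 ± 0.05), of ribonucleotide reductase, fell, and CDC45 (0.36 ± 0.05), CCNE2 (0.44) and E2F1 (0.22) rose.

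Of 6 genes of CENP-A deposition 3 fell and none rose at 500 nM against DMSO, with a median of -0.21. The 3 calls are near the share over all tested genes, of which 52.0% were called. Among those that fell were the CENP-A chaperone gene HJURP (-0.42 ± 0.06) and OIP5 (-0.32 ± 0.07), which acts in CENP-A loading. MIS18A was at 0.007 (adjusted p = 0.937). Against 150 nM CENPC, whose product binds CENP-A nucleosomes, also fell (-0.24 ± 0.09, adjusted p = 0.0268), making 4 of 6. In that comparison 46.5% of all tested genes were called.

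Of 11 genes of H2A.Z exchange 4 fell and 1 rose at 500 nM against DMSO, with a median of -0.02, where 25.6% of all tested genes fell and 26.3% rose. The 5 calls are no larger a share than the 52.0% over all genes. ANP32E, the chaperone that removes H2A.Z from nucleosomes, fell the most (-0.96 ± 0.08). The ATPase genes RUVBL1 (-0.62 ± 0.06) and RUVBL2 (-0.43 ± 0.05) followed, and then INO80 (-0.23 ± 0.06). SRCAP, the catalytic subunit of a complex that inserts H2A.Z, rose (0.90 ± 0.07). EP400, of the other inserting complex, was at 0.15 ± 0.07 (adjusted p = 0.0944) and rose against 150 nM (0.27 ± 0.07, adjusted p = 0.00387). The other genes of the list were not called against DMSO.

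Few genes of H3.3 deposition were called at 500 nM against DMSO, where 52.0% of all tested genes were. Of 7, CABIN1 of the HIRA complex rose (0.30 ± 0.07) and none fell at 500 nM against DMSO, with a median of 0.0004. HIRA (-0.02), ATRX (0.0004) and DAXX (-0.09, adjusted p = 0.17) were not called. Other settings called 1 to 4 of the 7 genes, so this count is not firm. Against 150 nM CABIN1 rose and ASF1A, an H3.3 and H3 chaperone gene, fell (-0.18 ± 0.08, adjusted p = 0.0468). In that comparison 46.5% of all tested genes were called.

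Among 8 genes of H2A.X signalling 3 fell and 1 rose at 500 nM, with a median of -0.05, and these 4 calls are near the 52.0% called over all genes. MDC1, the reader of phosphorylated H2A.X, fell by 0.50 ± 0.06, and the kinase genes ATR (-0.34 ± 0.05) and PRKDC (-0.13 ± 0.04) fell less. RNF168, a ubiquitin ligase acting after MDC1, rose (0.19 ± 0.06). ATM, the main kinase at DNA breaks, was at -0.02 (adjusted p = 0.812). Without 500 nM replicate 1 the count called in this list was 2 in place of 4.

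Of 12 general histone chaperone genes 6 fell and none rose, with a median of -0.15. That is near the 52.0% called in either direction over all genes, of which 25.6% fell. NASP (-0.73 ± 0.05), which holds soluble H3 and H4, and NPM1 (-0.70 ± 0.05), nucleophosmin, had the smallest p-values. The CAF-1 genes CHAF1A (0.04) and CHAF1B (-0.10) and ASF1B (0.02), which serve replication, were not called. At 150 nM edgeR called 1.27% of all tested genes. None of the genes of the H3.3, CENP-A, H2A.Z, H2A.X and general chaperone lists was called there with edgeR, DESeq2 or limma-voom. At an unadjusted p under 0.05 in edgeR the counts were 0, 1, 3, 0 and 1 in that order.

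**Figure D5:**
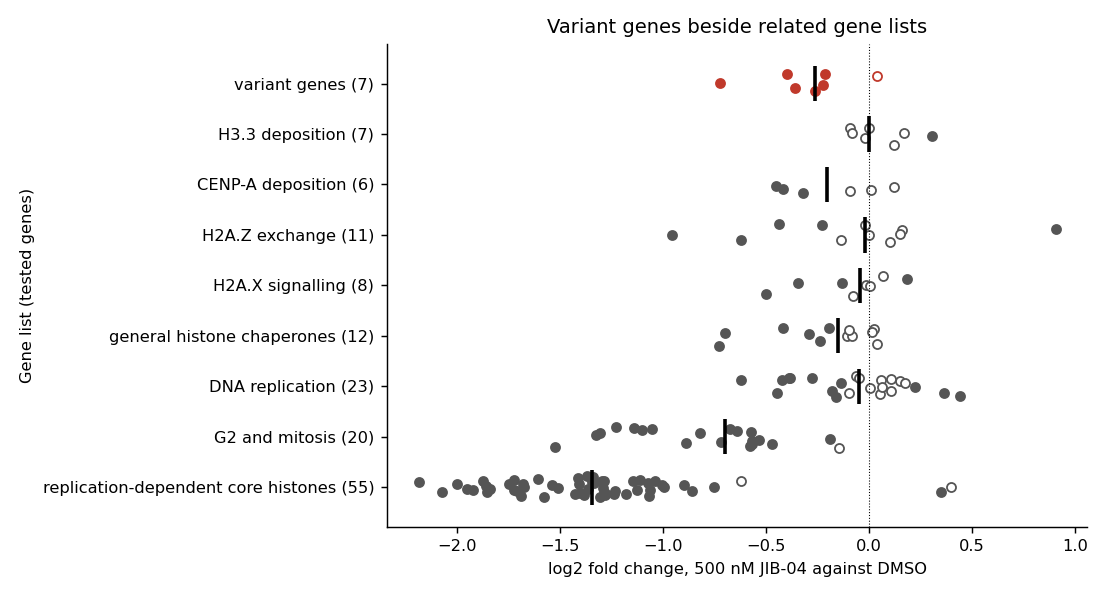
log2 fold change at 500 nM JIB-04 against DMSO of each tested gene, in rows for the 7 variant genes (red) and 8 related lists with the number of tested genes in brackets; filled points passed an adjusted p of 0.05 and black bars are medians. The medians run from 0.0004 for H3.3 deposition to -1.34 for replication-dependent core histones, with -0.26 for the variant genes.

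Other core variant genes, with expression mostly restricted to testis or to a few tissues, were near the limit of detection. H2AFY2, the macroH2A2 gene, had 4 to 27 counts per library, H3F3C 7 to 52 and H2BFM 3 to 22, and none of these 3 was called in any comparison. At an unadjusted p under 0.05 the count was also 0, as it was with DESeq2 and limma-voom. H2AFB2 had 0 to 6 counts, and H2AFB1, H2AFB3 and H2BFWT were listed at 0 in every library.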

How the data were processed

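The authors deposited 1 table of raw read counts, with gene symbols as rows and libraries as columns, and the sample titles gave the groups and replicates. Per the submitters' processing notes, the tools were featureCounts 1.4.6 (and Subread), Bowtie2 2.2.6 and TopHat2 2.0.14, with builds hg19 and mm10. The sources used here do not give the annotation, the strand setting or how shared reads were treated. In R 4.3.3, with limma 3.58.1 and edgeR 4.0.16, the counts went through filterByExpr (minimum count 10, minimum total 15), TMM scaling and a robust quasi-likelihood fit of all 9 libraries. Standard errors were derived from the fold change and its F statistic. DESeq2 1.42.0, limma-voom, other scalings and filters, GC and length trends, a replicate block and leaving out each library were alternatives. The script was tested on simulated data. Replicate pairs differed by 6.59 to 16.05 in chi-square per degree of freedom, so all libraries were kept. The members and lists were chosen with earlier results of these data known. All variant genes are named, with, per list, the 2 smallest p-values at 500 nM in the main direction and 1 opposite; the other list genes named, and the alternative of counts per H3F3B count, were chosen after values were seen. Some genes that this rule selects are not reported here. Gene sequences came from GENCODE release 29 and RefSeq. Intervals cover the spread between libraries, and reads carry no molecular identifiers here.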

Additional observations from a re-analysis of the deposited data

How the results depend on the processing

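The variant genes called lower numbered 6 at 500 nM against DMSO and 5 against 150 nM, and total-count scaling gave 3 in each. That scaling raised the share of higher calls from 50.9% to 71.1% in the second comparison and moved the median of all genes by 0.123, and it turned H3F3B against 150 nM to 0.11 (adjusted p = 0.0329). CENPA, H2AFZ and H2AFV were called lower at 500 nM against DMSO in all 21 alternatives, CENPA at -0.78 to -0.58. H2AFX was called in 17 of 21, at -0.48 to -0.09, and against 150 nM in 8 of 21. H2AFX called against 150 nM included the fits with no filter (-0.20), with the 6 libraries compared (-0.19) and with GC trends removed (-0.45).

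Changes of size near 0 changed sign in some settings, none with a call except that of H3F3B above. At 150 nM H2AFZ was 0.0053 with DESeq2 and with its size factors, 0.0027 with limma-voom, 0.017 with total counts, 0.013 with no filter, 0.0015 with the 6 libraries compared, 0.028 with GC trends removed (0.026 with a replicate block as well) and 0.021 with length trends removed. Leaving out single libraries gave -0.067 to 0.044 for H2AFZ, -0.035 to 0.0045 for H2AFV and -0.11 to 0.069 for H2AFX. H3F3B at 500 nM against 150 nM was 0.0038 with a filter of 1 CPM, and -0.027 to 0.013 without single libraries.

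The H3.3 deposition list had 1 gene called at 500 nM, 4 with total counts, 2 with no filter, 3 with a filter of 1 CPM or with the 6 libraries compared, 4 with GC trends removed, and 1 to 3 without single libraries. The H2A.X signalling list had 2 to 4 without single libraries. Without single libraries the log2 difference of the H2AFZ to H2AFV ratio at 500 nM ran from -0.16 to -0.10. That of CENPA to G2 and mitosis genes ran from 0.013 to 0.18. The exact permutation test over the 3 groups called the first ratio without 150 nM replicate 2 (difference -0.13, adjusted p = 0.0381). That test called the second without DMSO replicate 2. It does not test a single pair of groups. At 150 nM 192 genes were called in all, 291 with DESeq2, 320 with no filter, 101 with the 6 libraries compared, 353 with GC trends removed and 98 to 545 without single libraries.

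Same-numbered libraries of different groups had deviations correlated at -0.0525 to 0.104, so the numbers were not taken to pair them. With the replicate number as a block 308 genes were called at 150 nM and 413 with GC trends removed as well, the H3.3 deposition list had 2 and 4 called, and H2AFX was called against 150 nM (adjusted p = 0.025). With that block the ratios to replication-dependent genes kept differences of 1.53 and 1.02, but the adjusted p was 0.0556, since 216 arrangements set the smallest p.

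The ratio of H3F3A to H3F3B could not be computed with H3F3A at 0. Causes of these differences were not tested.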
